A study of Mus musculus with 30 samples.

Results

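The chain genes of the collagens and laminins are described here across 5 mouse embryonic stem (ES) cell lines. Every gene of the table whose symbol has the form of a collagen chain (Col, a type number, a, a chain number) or a laminin chain (Lama, Lamb or Lamc and a number) was taken. Of 55421 genes, 55 matched, 44 for collagen chains and 11 for laminin chains. Of these, 48 (37 collagen and all 11 laminin chains) had 10 or more counts in at least 3 of the 30 libraries and are described. The other 7 (Col10a1, Col19a1, Col24a1, Col28a1, Col3a1, Col4a3 and Col4a4) fell short. At the threshold, Col6a6 was just inside with 3 such libraries and Col10a1 just outside with 1. The filter used for testing removed Col6a6 as well, which left 47 chain genes (36 collagen, 11 laminin) with a test.

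The study removed proteins that regulate cohesin, whose ring extrudes loops of chromatin, to ask how their dosage acts on the genome. Polyadenylated RNA was sequenced from E14 cells, a male ES line of 129 background kept on gelatin in serum with LIF, PD0325901 and CHIR-99021. All 5 lines carry Tir1, the plant receptor through which auxin marks a protein bearing an auxin-inducible degron (AID) for destruction. The TIR1 line has no degron and is the control for auxin. The PDS5AB line has AID on PDS5A and PDS5B, accessory subunits bound to the cohesin ring, and the WAPL line has AID on WAPL, the cohesin release factor. PDS5AB-NIPBL and WAPL-NIPBL cells bear the same AID fusions, an FKBP degron on NIPBL, the cohesin loader, and a HaloTag on RAD21, a cohesin subunit; they are called the combined lines. Each line was sampled untreated and after 24 h, with 500 µM auxin in the first 3 lines and 500 µM auxin with 500 nM dTAG-13, the ligand of the FKBP degron, in the combined lines. There were 3 libraries in each of the 10 groups. Each genotype was 1 cell line, so genotype and line cannot be told apart. Nothing in the labels says that replicates were separate cultures, so the p-values measure only the spread between these libraries, which may be technical.

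Laminins are trimers of an alpha, a beta and a gamma chain that assemble on the cell surface into the first sheet of a basement membrane. Type IV collagen then forms a covalent network beneath that sheet, joined to it by nidogen and perlecan. In the early mouse embryo the epiblast, from which ES cells come, sits on a basement membrane whose laminin of Lama1, Lamb1 and Lamc1 is largely made by the endoderm beside it, while the laminin of Lama5, Lamb1 and Lamc1 is made by ES cells themselves. Fibril-forming collagens (types I, II, III, V, XI and XXVII among others) build the fibres of connective tissue, cartilage and bone. A collagen molecule holds 3 chains, and many types need the products of more than 1 gene.

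Promoters of 4 basement membrane chain genes that rose in all 4 degron lines are shown to give the sequence context of the changes described below, and because Col4a1 and Col4a2 are transcribed from a shared region. Each is a RefSeq window on GRCm38.p6 from 250 bases before to 50 after the annotated start, printed 5′ to 3′ on the gene's own strand. Capitals mark matches on either strand to GGGCGG (the GC box) or CCAAT (the CCAAT box), so that CCGCCC and ATTGG are the same motifs on the other strand.
Col4a1 (chr8:11312777-11313076, minus strand): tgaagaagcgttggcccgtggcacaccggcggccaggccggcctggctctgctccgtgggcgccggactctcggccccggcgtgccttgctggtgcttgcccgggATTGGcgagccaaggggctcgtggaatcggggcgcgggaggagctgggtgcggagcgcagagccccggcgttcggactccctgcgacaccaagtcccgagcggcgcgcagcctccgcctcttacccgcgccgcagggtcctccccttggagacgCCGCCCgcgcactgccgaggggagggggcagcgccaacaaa
Col4a2 (chr8:11312555-11312854, plus strand): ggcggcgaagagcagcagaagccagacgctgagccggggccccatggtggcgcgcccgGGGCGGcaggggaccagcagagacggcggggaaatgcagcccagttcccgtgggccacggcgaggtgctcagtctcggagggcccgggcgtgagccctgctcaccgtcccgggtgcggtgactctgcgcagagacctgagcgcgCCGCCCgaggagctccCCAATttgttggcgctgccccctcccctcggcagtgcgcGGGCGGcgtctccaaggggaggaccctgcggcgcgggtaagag
Lama5 (chr2:180225810-180226109, minus strand): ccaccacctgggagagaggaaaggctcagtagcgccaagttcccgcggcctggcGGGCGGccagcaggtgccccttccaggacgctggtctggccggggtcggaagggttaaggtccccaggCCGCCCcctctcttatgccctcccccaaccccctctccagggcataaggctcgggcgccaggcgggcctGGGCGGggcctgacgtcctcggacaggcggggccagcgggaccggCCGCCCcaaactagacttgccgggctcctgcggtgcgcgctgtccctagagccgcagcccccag
Lamb1 (chr12:31265043-31265342, plus strand): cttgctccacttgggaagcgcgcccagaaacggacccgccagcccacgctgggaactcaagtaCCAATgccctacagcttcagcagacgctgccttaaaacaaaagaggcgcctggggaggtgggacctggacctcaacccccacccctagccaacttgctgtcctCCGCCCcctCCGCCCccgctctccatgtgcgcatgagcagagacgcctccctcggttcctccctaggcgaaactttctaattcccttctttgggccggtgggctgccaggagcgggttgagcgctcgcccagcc

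The Col4a1 and Col4a2 windows lie head to head and share 78 bases (chr8:11312777-11312854), read on opposite strands. This shared span holds the annotated starts of both genes. Their annotated exons overlap by 22 bases. The Col4a2 window holds 3 GC boxes and the Lama5 window 4, while Col4a1 has 1 and Lamb1 has 2. Col4a1, Col4a2 and Lamb1 each hold 1 CCAAT box. None of these 4 windows holds TATAAA or TGANTCA (the AP-1 site). RefSeq windows were matched by symbol for 34 of the 48 chain genes, which have 38 windows. Windows on chromosome 18, where Lama3 lies, were left out of the 38 but kept among all windows. Of the 38, 26 hold a GC box, 14 a CCAAT box, 3 a TATA box and 1 an AP-1 site. Among all 32851 windows the shares were 35.7%, 37.4%, 13.6% and 7.81%. The median GC content was 60.0% in the chain genes' windows and 52.7% in all. A match describes letters only and shows neither a bound factor nor a cause.

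Total counts ran from 19632704 to 45539021 fragments per library. All 9 ES cell markers tested (Pou5f1, Sox2, Nanog, Zfp42, Esrrb, Klf4, Tfcp2l1, Dppa5a and Tdgf1) were detected in every group, and their summed level was 4817 to 8173 CPM (counts scaled to library size with TMM factors). The library numbers in the labels fall into a set up to 21, which holds untreated TIR1 and both PDS5AB groups, and a set from 25, which holds all other groups. The TIR1 auxin effect and the untreated WAPL, PDS5AB-NIPBL and WAPL-NIPBL levels against TIR1 therefore compare across the sets, and there treatment or line cannot be told apart from the set. The treatment effects of the 4 degron lines lie within a set.

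Before treatment the chain genes covered a wide range of levels, led by Lamc1, the gamma chain common to most laminins. In untreated TIR1 cells Lamc1 stood at 103 ± 5.18 CPM per kb of exon (SD, n = 3). It was followed by Col18a1 at 34.97 ± 5.07 CPM per kb, Lama5 at 27.9 ± 2.29, Lama1 at 16.4 ± 0.469 and Lamb2 at 12.2 ± 0.818. Col18a1 and Lama5 differed by less than the sum of their SDs, and the other neighbours among these 5 by more. Further down, Col9a2 was at 7.15 ± 0.626 CPM per kb, and Lamb1 at 2.65 ± 0.478 and Col5a1 at 2.58 ± 0.255 did not differ beyond their spread. Col4a1 stood above these last 2 genes at 4.997 ± 0.707 CPM per kb, above its partner Col4a2 at 1.87 ± 0.230. Col1a1, a chain of the main collagen of bone and skin, was at 0.481 ± 0.124 CPM per kb. Below 0.05 CPM per kb were the last 13 of the 48 genes, from Col1a2 to Col25a1, which had 0 counts in this group. The median chain gene spans 110.6 kb of genome, against 16 kb for all genes tested.

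Depletion in each degron line raised more of the chain genes than it lowered. After loss of PDS5A and PDS5B, 31 of the 47 rose and 3 fell, where 25.8% and 20.2% of all 19868 genes tested did so (46% in either direction). After loss of WAPL, 20 of the 47 rose and 8 fell, where 17% and 15.8% of all 19868 genes tested did so (32.8% in either direction). With NIPBL depleted as well, 16 rose and 4 fell in PDS5AB-NIPBL cells, against backgrounds of 11.4% and 8.06% (19.5% in either direction). In WAPL-NIPBL cells 10 rose and 0 fell, against 5.11% and 3.45% (8.57%), and with the replicate number as a block 11 rose and 3 (Lamc1, Col11a1 and Col18a1) fell, where 17.1% of all genes were called. Auxin in TIR1 cells moved 3 up and 5 down, against 10.4% and 9.59% (19.9%), so the share in either direction was near the background there. Col4a6 and Col8a1 had fewer than 3 libraries of 10 or more counts outside the treated PDS5AB group. They therefore entered the test through the group where they are high. The 31 that rose in PDS5AB cells include both, and their calls lend that count no weight. Neither is among the genes with a mean of 50 or more counts, given next. Of the 30 chain genes with a mean of 50 or more counts, 20 rose and 3 fell in PDS5AB, 17 and 7 in WAPL, 13 and 3 in PDS5AB-NIPBL, 10 and 0 in WAPL-NIPBL and 2 and 5 in TIR1 cells. Of all 12941 genes with that mean, 26.1% rose and 28.6% fell in PDS5AB, 18.6% and 21.9% in WAPL, 14.4% and 11.4% in PDS5AB-NIPBL, 6.68% and 5.00% in WAPL-NIPBL, and 14.1% and 11.7% in TIR1 cells. A gene is said to rise or fall where edgeR's quasi-likelihood test gave a Benjamini-Hochberg adjusted p under 0.05 over all genes tested. The median log2 change of the 47 was 0.89 in PDS5AB, 0.57 in WAPL, 0.46 in PDS5AB-NIPBL, 0.34 in WAPL-NIPBL and 0.02 in TIR1 cells, and that of all genes was 0.04, 0.00, 0.00, 0.01 and -0.01. Since RNA came from bulk cultures, more RNA per cell and more cells of an expressing type cannot be told apart.

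Across the 4 depletions, 9 genes rose in every line, among them the laminin chains Lama5, Lamb1, Lamb2 and Lamb3, the type IV chains Col4a1 and Col4a2, and the collagens Col23a1 and Col27a1. Of all genes tested, 2.88% rose in every line. Col5a1, Col9a3 and Lamc3 rose in 3 lines, as did 4.77% of all genes. In all, 34 rose in at least 1 line and 10 fell in at least 1, where 32.3% and 27.5% of all genes did, while none fell in all 4 (1.99% of all genes). Col4a6, called in PDS5AB cells alone, and Col8a1 are among the 34. Col1a1, Col1a2 and Col9a2 rose in 1 line or more and fell in another, as did 1.81% of all genes. Of all genes 42% passed in none of the 4 lines. The 6 chain genes that did so were Col14a1, Col17a1, Col25a1, Col6a5, Col9a1 and Lama2.

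**Figure D1:**
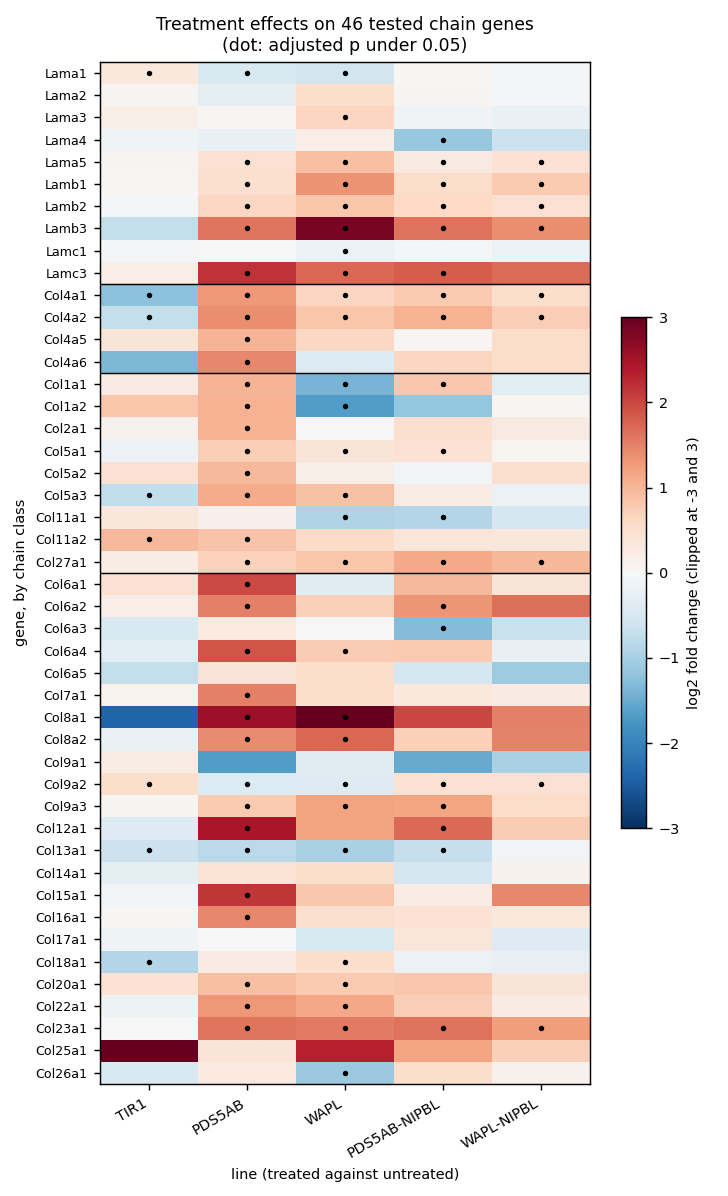
Log2 fold change (colour, treated against untreated) of 46 of the 47 tested chain genes (vertical axis, by chain class) in the 5 lines (horizontal axis); a dot marks adjusted p under 0.05, and values beyond 3 in either direction are drawn at 3. Dots on red are most frequent in the PDS5AB column (30 of 46) and become fewer in the WAPL (19), PDS5AB-NIPBL (15) and WAPL-NIPBL (9) columns. The 30 include Col4a6 and Col8a1, which entered the test through the treated PDS5AB libraries. Col25a1, Col8a1, Col4a6, Col6a2, Col9a1 and Lamc3 had 3 counts or fewer in every library of at least 1 group, so their colours in the lines of those groups depend on the prior count.

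Among the alpha chains, which bind the cell's receptors, Lama5 rose in all 4 degron lines while Lama1 fell in PDS5AB and WAPL cells. Of the 11 laminin chains, 6 rose and 1 fell in PDS5AB cells, 7 and 2 in WAPL, 6 and 1 in PDS5AB-NIPBL, 5 and 0 in WAPL-NIPBL, and 1 and 0 in TIR1 cells. Of all genes tested, 46%, 32.8%, 19.5%, 8.57% and 19.9% were called in either direction in that order, so the TIR1 count lay below its background. Lama1 in the PDS5AB line was at 120.1, 111 and 116 CPM without treatment and 94.0, 78.9 and 81.0 CPM after it (log2 fold change -0.45, SE 0.08, edgeR adjusted p = 4.17e-05). In WAPL cells Lama1 was at 219, 264 and 219.7 CPM without treatment and 139, 169 and 169 CPM after it (log2 fold change -0.56, SE 0.08, edgeR adjusted p = 2.94e-06). In both lines every treated library lay below every untreated one. In the PDS5AB-NIPBL line Lama1 was at 241, 270.3 and 226 CPM without treatment and 255, 254 and 261 CPM after it, and in the WAPL-NIPBL line at 246, 268 and 228 CPM without treatment and 229, 241 and 240.1 CPM after it. Those groups overlapped, with log2 fold changes of 0.06 (SE 0.08, edgeR adjusted p = 0.662) and -0.06 (SE 0.08, edgeR adjusted p = 0.736). In TIR1 cells auxin took Lama1 the other way, from 162, 153 and 159.6 to 195, 196 and 204 CPM (log2 fold change 0.33, SE 0.08, edgeR adjusted p = 0.00482), across the 2 sets of library numbers.

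Lama5, the alpha chain of the main laminin of epithelia, rose most in WAPL cells, from 330.8, 351 and 371 to 619, 639 and 724 CPM (log2 fold change 0.91, SE 0.08, edgeR adjusted p = 3.58e-10). Its log2 change was 0.45 (SE 0.08, edgeR adjusted p = 3.28e-05) in PDS5AB and 0.44 (SE 0.08, edgeR adjusted p = 0.000348) in WAPL-NIPBL cells, with no overlap of the groups in any of these 3 lines. In PDS5AB-NIPBL cells the change was 0.28 (SE 0.08, edgeR adjusted p = 0.0124). This call did not hold without treated replicate 1 (0.109) and without untreated replicate 2 (0.0848), and its adjusted p ran from 0.0002 to 0.109 over 11 alternatives to the edgeR fit. Auxin in TIR1 cells gave 0.08 (SE 0.08, edgeR adjusted p = 0.532). Lama3, the alpha chain of the anchoring laminin of skin, rose in WAPL cells, from 17.02, 15.9 and 16.5 to 29.1, 24.2 and 23.9 CPM (log2 fold change 0.64, SE 0.11, edgeR adjusted p = 3.94e-05), and its log2 change lay between -0.20 and 0.18 in the other 4 lines with no call. Lama4, a chain of vascular and mesenchymal basement membranes, fell in PDS5AB-NIPBL cells from 2.08, 1.83 and 1.74 to 0.546, 0.909 and 1.07 CPM (log2 fold change -1.13, SE 0.26, edgeR adjusted p = 0.00171). Lama2, the muscle alpha chain, stayed below 0.5 CPM in every library and passed no test.

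The make-up of the alpha chains differed after treatment. Lama1 made up 25.9% ± 1.27 (SD, n = 3) of the summed alpha chain level per kb in untreated PDS5AB cells and 16.1% ± 0.981 after auxin. In WAPL cells its share was 42.6% ± 2.94 before and 21.3% ± 1.52 after auxin. Lama5 took 66.0% ± 1.36 and 77.0% ± 0.988 of the alpha chain level in PDS5AB cells, and 54.4% ± 2.85 and 75.3% ± 1.33 in WAPL cells. The Lama1 share moved from 44.3% ± 3.74 to 41.01% ± 2.08 in PDS5AB-NIPBL and from 45.95% ± 3.07 to 37.8% ± 1.69 in WAPL-NIPBL cells, while in TIR1 cells it was 35.5% ± 1.22 and 39.4% ± 0.891. These shares are given without a test.

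**Figure D2:**
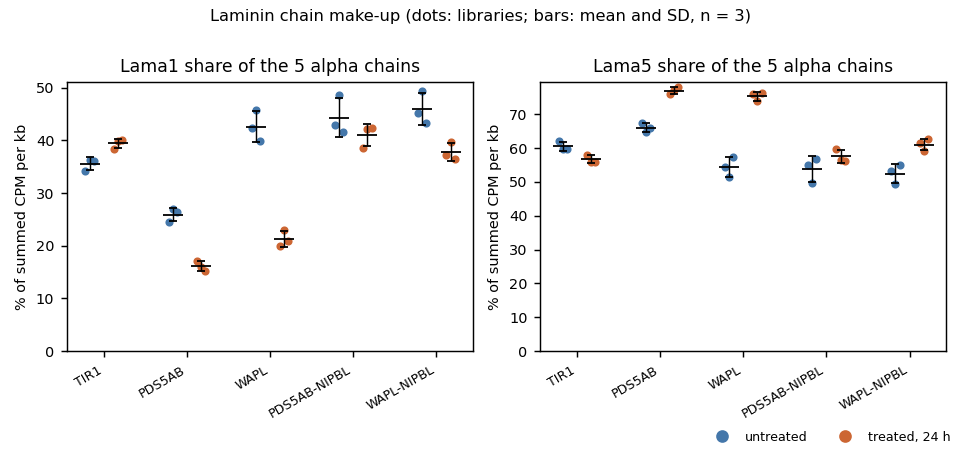
Share (%) of Lama1 (left) and of Lama5 (right) in the summed level per kb of the 5 alpha chains, by line; dots are libraries and bars the mean and SD (n = 3). After treatment the Lama1 share is lower in PDS5AB (16.1% ± 0.981) and WAPL cells (21.3% ± 1.52), and the Lama5 share is higher in both (77.0% ± 0.988 and 75.3% ± 1.33).

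**Figure D3:**
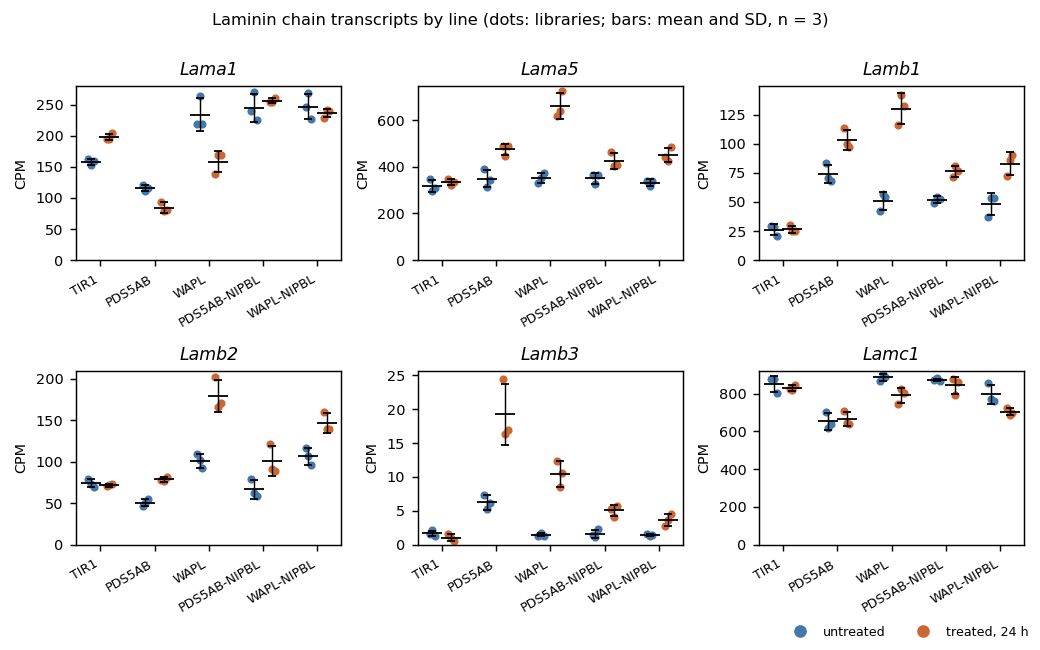
Level (CPM, linear axes from 0) of 6 laminin chain genes in the 5 lines; dots are libraries, coloured by treatment, and bars give the mean and SD (n = 3). Treated Lamb3 libraries of the 4 degron lines lie between 2.81 and 24.4 CPM, above the untreated libraries of their own line, whereas treated Lama1 libraries of the PDS5AB and WAPL lines lie below theirs.

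All 3 beta chains rose in every degron line. Lamb3, the beta chain of the anchoring laminin of skin (chr1:193207699-193343878), showed the largest rise of any chain gene with a mean of 50 or more counts in WAPL cells, from 1.36, 1.69 and 1.30 to 12.3, 8.51 and 10.6 CPM (7.24-fold on the means; log2 fold change 2.85, SE 0.25, edgeR adjusted p = 4.32e-10). In PDS5AB cells it went from 7.38, 5.22 and 6.15 to 24.4, 16.3 and 16.9 CPM (log2 fold change 1.62, SE 0.21, edgeR adjusted p = 3.04e-07). The untreated PDS5AB libraries were already higher than the untreated libraries of every other line. In PDS5AB-NIPBL cells Lamb3 went from 1.43, 1.13 and 2.29 to 5.33, 4.14 and 5.77 CPM (log2 fold change 1.63, SE 0.26, edgeR adjusted p = 3.25e-05). In WAPL-NIPBL cells it went from 1.61, 1.27 and 1.40 to 2.81, 3.71 and 4.59 CPM (log2 fold change 1.40, SE 0.27, edgeR adjusted p = 0.00081). No treated library overlapped the untreated ones in these lines. In TIR1 cells the groups overlapped, at 1.58, 2.11 and 1.35 CPM without treatment and 1.55, 0.950 and 0.582 CPM after it (log2 fold change -0.72, SE 0.30, edgeR adjusted p = 0.0955). Neither RefSeq window of Lamb3 holds the 4 motifs searched.

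Lamb1, the beta chain of the laminins made by the early embryo, moved from 42.3, 56.7 and 54.5 to 116, 142 and 132 CPM in WAPL cells (log2 fold change 1.35, SE 0.13, edgeR adjusted p = 2.44e-09). In PDS5AB cells it moved from 83.2, 70.3 and 68.5 to 113, 100.3 and 97.3 CPM (log2 fold change 0.49, SE 0.13, edgeR adjusted p = 0.00241). In PDS5AB-NIPBL cells it moved from 48.9, 54.5 and 52.5 to 71.6, 81.4 and 76.3 CPM (log2 fold change 0.56, SE 0.13, edgeR adjusted p = 0.00251). All treated libraries of these lines exceeded the untreated ones of the same line. In WAPL-NIPBL cells Lamb1 moved from 36.95, 53.5 and 53.5 to 72.0, 86.4 and 90.5 CPM (log2 fold change 0.79, SE 0.13, edgeR adjusted p = 0.000123), again without overlap. TIR1 cells held 29.4, 28.6 and 20.8 CPM without treatment and 30.2, 24.9 and 25.1 CPM after it, overlapping groups (log2 fold change 0.02, SE 0.14, edgeR adjusted p = 0.927). Lamb2, the beta chain of kidney and synaptic basement membranes, rose by 0.83 on the log2 scale in WAPL cells (SE 0.11), 0.63 in PDS5AB (SE 0.11), 0.59 in PDS5AB-NIPBL (SE 0.11) and 0.46 in WAPL-NIPBL cells (SE 0.11). The treated and untreated Lamb2 libraries did not overlap in any of the 4, and the change in TIR1 cells was -0.05 (SE 0.11, edgeR adjusted p = 0.812).

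Among the gamma chains, Lamc1 (chr1:153218922-153332786), the most abundant chain gene, had small changes only. In PDS5AB cells it was at 704, 618 and 641 CPM without treatment and 707, 643 and 642 CPM after it (log2 fold change 0.02, SE 0.06, edgeR adjusted p = 0.804). In WAPL cells it was at 869, 906 and 887 CPM without treatment and 745, 823 and 805 CPM after it (log2 fold change -0.17, SE 0.06, edgeR adjusted p = 0.0369). Its call was lost with no filter on low counts (0.114), with only the groups compared in the fit (0.21), without untreated replicate 1 (0.0722), without auxin-treated replicate 1 (0.201), without untreated replicate 2 (0.142), without auxin-treated replicate 2 (0.0556), without untreated replicate 3 (0.104) and without auxin-treated replicate 3 (0.0995), and its adjusted p ran from 0.00672 to 0.21 over 11 alternatives to the edgeR fit. The combined lines gave log2 changes of -0.05 (SE 0.06, edgeR adjusted p = 0.654) in PDS5AB-NIPBL, from 871, 881 and 868 to 876, 791 and 864 CPM, and -0.18 (SE 0.06, edgeR adjusted p = 0.0693) in WAPL-NIPBL, from 855, 771 and 762 to 726, 689 and 697 CPM. With the replicate number as a block the WAPL-NIPBL fall passed (edgeR adjusted p = 0.0107). TIR1 cells held 875, 879.8 and 803 CPM without treatment and 825, 817 and 846 CPM after it (log2 fold change -0.04, SE 0.06, edgeR adjusted p = 0.696).

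Lamc3, a rare gamma chain, was at 0.472, 0.132 and 0.276 CPM before and 1.72, 1.24 and 1.05 CPM after auxin in PDS5AB cells (log2 fold change 2.17, SE 0.44, edgeR adjusted p = 0.000145). It also passed in WAPL cells (log2 fold change 1.72, SE 0.61, edgeR adjusted p = 0.0301) and in PDS5AB-NIPBL cells (log2 fold change 1.81, SE 0.53, edgeR adjusted p = 0.0144). The WAPL call was lost without untreated replicate 2 (0.134) or 3 (0.0583) and without auxin-treated replicate 2 (0.0564) or 3 (0.0936), and the adjusted p ran from 0.0228 to 0.134 over 10 alternatives to the edgeR fit. The PDS5AB-NIPBL call was lost without treated replicate 1 (0.139) and without untreated replicate 2 (0.0556) or 3 (0.0946), with a range of 0.00407 to 0.139.

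Col4a1 and Col4a2, the paired chains of the common type IV collagen network, rose together in every degron line and were lower in auxin-treated than in untreated TIR1 cells. Of the 4 type IV chains tested, Col4a6 entered the test through the treated PDS5AB libraries and is not counted there. Of the others Col4a1, Col4a2 and Col4a5 rose in PDS5AB cells, and Col4a1 and Col4a2 in each other degron line, where 25.8%, 17%, 11.4% and 5.11% of all genes rose (PDS5AB, WAPL and the 2 combined lines, in this order). In TIR1 cells none rose and Col4a1 and Col4a2 fell. Col4a1 (chr8:11198423-11312826) in PDS5AB cells went from 58.1, 36.1 and 33.9 to 125, 96.1 and 93.8 CPM (log2 fold change 1.30, SE 0.16, edgeR adjusted p = 7.11e-08). With WAPL depleted it went from 43.9, 49.7 and 53.4 to 71.8, 81.6 and 76.6 CPM (log2 fold change 0.65, SE 0.16, edgeR adjusted p = 0.0016). In PDS5AB-NIPBL cells it went from 28.4, 27.5 and 26.3 to 45.6, 47.1 and 48.6 CPM (log2 fold change 0.78, SE 0.16, edgeR adjusted p = 0.000703). The treated libraries were the higher ones throughout. WAPL-NIPBL cells, with the highest untreated level, went from 80.2, 100.3 and 91.7 to 114, 135 and 143 CPM (log2 fold change 0.53, SE 0.15, edgeR adjusted p = 0.0271). The call did not hold without untreated replicate 1 (0.14), without treated replicate 2 (0.0799), without untreated replicate 3 (0.078) and without treated replicate 3 (0.122), and its adjusted p ran from 9.68e-08 to 0.14 over 11 alternatives to the edgeR fit. In TIR1 cells Col4a1 fell from 41.7, 38.7 and 31.4 to 20.9, 13.9 and 13.1 CPM (log2 fold change -1.23, SE 0.17, edgeR adjusted p = 3.75e-06), a comparison across the 2 sets of library numbers.

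Col4a2 (chr8:11312805-11449287) showed the same directions at a lower level. It went from 22.2, 13.1 and 11.98 to 50.8, 38.4 and 35.7 CPM in PDS5AB cells (log2 fold change 1.41, SE 0.17, edgeR adjusted p = 4.68e-08). Under WAPL depletion it went from 16.6, 19.9 and 18.97 to 31.9, 32.6 and 33.4 CPM (log2 fold change 0.82, SE 0.16, edgeR adjusted p = 0.000222). In PDS5AB-NIPBL cells it went from 10.5, 9.79 and 7.89 to 19.8, 18.6 and 19.3 CPM (log2 fold change 1.04, SE 0.18, edgeR adjusted p = 7.85e-05). Groups did not overlap in these lines. WAPL-NIPBL cells went from 32.97, 39.3 and 33.9 to 52.7, 58.1 and 65.2 CPM (log2 fold change 0.73, SE 0.16, edgeR adjusted p = 0.00263), also without overlap. In TIR1 cells Col4a2 fell from 14.04, 11.98 and 11.1 to 9.64, 7.19 and 5.92 CPM (log2 fold change -0.71, SE 0.18, edgeR adjusted p = 0.00545). This call did not hold without untreated replicate 1 (0.0508) and without auxin-treated replicate 3 (0.0576), and its adjusted p ran from 5.27e-08 to 0.0576 over 11 alternatives to the edgeR fit.

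Col4a5 and Col4a6, whose chains form another type IV network, lie head to head 1.31 kb apart on the X chromosome. Col4a5 rose in PDS5AB cells from 0.708, 1.22 and 1.21 to 1.38, 2.65 and 2.42 CPM (log2 fold change 1.03, SE 0.28, edgeR adjusted p = 0.00271) and passed in no other line. Col4a6 was at 0.202, 0.132 and 0.221 CPM before and 0.448, 0.523 and 0.555 CPM after auxin in PDS5AB cells (log2 fold change 1.43, SE 0.57, edgeR adjusted p = 0.0408). It entered the test through these treated libraries, where it is high, so its call lends no weight to a rise. Its call was lost with no filter on low counts (0.0513), without untreated replicate 1 (0.0748), without auxin-treated replicate 1 (0.0594), without untreated replicate 2 (0.132), without auxin-treated replicate 2 (0.0842), without untreated replicate 3 (0.0678), without auxin-treated replicate 3 (0.0976) and with DESeq2 (0.0701), and its adjusted p ran from 0.0114 to 0.132 over 11 alternatives to the edgeR fit. Col4a3 and Col4a4 did not reach the count rule. Col4a1 held between 62.8% and 71.8% of the type IV level per kb in all 10 groups.

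**Figure D4:**
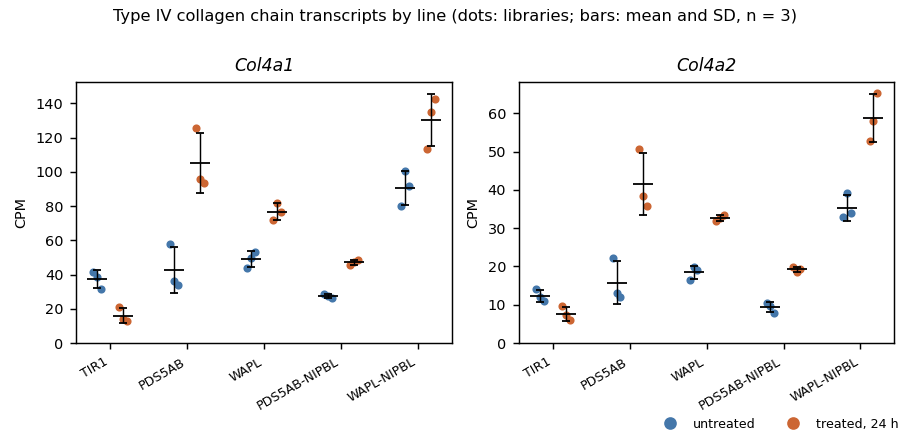
Level (CPM, linear axes from 0) of Col4a1 and Col4a2 in the 5 lines; dots are libraries, coloured by treatment, and bars give the mean and SD (n = 3). Treated libraries lie above the untreated ones in the 4 degron lines and below them in TIR1 cells, where Col4a1 is between 13.1 and 20.9 CPM after auxin.

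Markers of primitive and parietal endoderm, embryonic tissues known for secreting laminin and type IV collagen, were also higher after treatment in the degron lines. The 11 markers (Gata4, Gata6, Sox17, Sox7, Pdgfra, Dab2, Foxa2, Foxq1, Thbd, Cubn and Amn) summed to 26.9 to 32.1 CPM in untreated and 63.1 to 78.1 CPM in treated PDS5AB libraries. The sums were 12.2 to 14.7 and 40.3 to 56.01 CPM in WAPL, 12.4 to 14.9 and 32.7 to 38.8 in PDS5AB-NIPBL, 8.17 to 8.63 and 16.4 to 17.1 in WAPL-NIPBL, and 9.99 to 12.3 and 11.9 to 13.3 in TIR1 cells. Of the 11, 6, 6, 4 and 3 rose in the degron lines in that order and none fell, where 25.8%, 17%, 11.4% and 5.11% of all genes rose. In TIR1 cells, where Col4a1 and Col4a2 fell, 1 marker rose and 1 fell, against 10.4% and 9.59% of all genes. Untreated WAPL-NIPBL libraries had the highest untreated Col4a1 levels and the lowest marker sums. No marker was at 0 in a whole group. Of the 9 ES markers 9, 6, 7 and 6 fell, where 20.2%, 15.8%, 8.06% and 3.45% of all genes fell. Their part in the laminin and type IV changes was not tested.

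Of the remaining basement membrane collagens, Col18a1 stood out by level and by its spread across replicates. Its product releases endostatin. In WAPL cells it rose from 251, 209 and 230.1 to 387, 296 and 317 CPM (log2 fold change 0.53, SE 0.14, edgeR adjusted p = 0.00317), without overlap. In PDS5AB cells it was at 313, 218 and 220.1 CPM without treatment and 353, 266 and 273 CPM after it, overlapping groups (log2 fold change 0.25, SE 0.14, edgeR adjusted p = 0.141). With the replicate number as a block that rise passed (edgeR adjusted p = 3.41e-05), and each auxin-treated library exceeded the untreated library of the same number. The combined lines were at 255, 197 and 240.1 CPM without treatment and 219, 178 and 219.9 CPM after it in PDS5AB-NIPBL (log2 fold change -0.17, SE 0.14, edgeR adjusted p = 0.462). In WAPL-NIPBL they were at 264, 211 and 235 CPM without treatment and 216, 178 and 208 CPM after it (log2 fold change -0.24, SE 0.14, edgeR adjusted p = 0.351). Under the block both falls passed, with edgeR adjusted p = 0.0101 and 0.000703. In TIR1 cells Col18a1 fell from 285, 235 and 216 to 147, 118 and 136 CPM (log2 fold change -0.88, SE 0.14, edgeR adjusted p = 3.87e-05).

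Col7a1, which makes anchoring fibrils, rose in PDS5AB cells from 2.77, 2.58 and 3.01 to 6.90, 7.38 and 9.70 CPM (log2 fold change 1.52, SE 0.20, edgeR adjusted p = 2.66e-07), and its change of 0.52 (SE 0.21, edgeR adjusted p = 0.0553) in WAPL cells passed under the block alone (adjusted p = 0.0162). Col15a1, a relative of Col18a1, rose in PDS5AB cells from 0.202, 0.364 and 0.442 to 1.60, 1.14 and 1.80 CPM (log2 fold change 2.14, SE 0.40, edgeR adjusted p = 6.67e-05). Col17a1, a transmembrane collagen of hemidesmosomes, passed in no line, with -0.49 (SE 0.19, edgeR adjusted p = 0.0503) in WAPL cells and edgeR adjusted p = 0.0181 there under the block.

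Calls of the fibril-forming collagens varied by line: 8 of the 9 rose and 0 fell in PDS5AB cells, 3 rose and 3 fell in WAPL, 3 and 1 in PDS5AB-NIPBL, 1 and 0 in WAPL-NIPBL, and 1 and 1 in TIR1 cells. Against the shares of all genes called in either direction (46%, 32.8%, 19.5%, 8.57% and 19.9%), the WAPL-NIPBL and TIR1 counts were near the background. Col1a1, the major chain of type I collagen, moved in opposite directions. In PDS5AB cells it rose from 3.44, 3.24 and 4.001 to 8.32, 6.40 and 6.99 CPM (log2 fold change 1.02, SE 0.19, edgeR adjusted p = 4.95e-05). With WAPL depleted it fell from 7.72, 8.08 and 7.13 to 3.72, 2.79 and 2.33 CPM (log2 fold change -1.39, SE 0.19, edgeR adjusted p = 1.33e-06). Neither comparison overlapped, and the untreated WAPL libraries were the highest untreated ones of the 5 lines. In PDS5AB-NIPBL cells Col1a1 rose from 4.12, 2.57 and 4.09 to 7.10, 5.40 and 6.59 CPM (log2 fold change 0.81, SE 0.19, edgeR adjusted p = 0.00277). In WAPL-NIPBL cells it was at 5.69, 5.81 and 5.87 CPM without treatment and 5.93, 4.66 and 3.51 CPM after it (log2 fold change -0.32, SE 0.19, edgeR adjusted p = 0.361). TIR1 cells held 4.08, 2.55 and 2.84 CPM without treatment and 3.80, 3.39 and 4.12 CPM after it (log2 fold change 0.25, SE 0.20, edgeR adjusted p = 0.412). Col1a2, its partner chain at a lower level, changed by 1.04 (SE 0.32, edgeR adjusted p = 0.00888) in PDS5AB and -1.67 (SE 0.42, edgeR adjusted p = 0.00249) in WAPL cells. The PDS5AB call was lost without untreated replicate 3 (0.075), and its adjusted p ran from 0.00102 to 0.075 over 11 alternatives to the edgeR fit. In PDS5AB-NIPBL cells Col1a2 went the other way from Col1a1, from 0.646, 0.305 and 0.557 to 0.273, 0.101 and 0.287 CPM (log2 fold change -1.15, SE 0.47, edgeR adjusted p = 0.087), and passed under the block (adjusted p = 0.0317).

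Col27a1, a fibril collagen of cartilage, rose in all 4 degron lines. It went from 8.97, 7.36 and 9.11 to 21.8, 14.6 and 19.6 CPM in PDS5AB-NIPBL (log2 fold change 1.14, SE 0.14, edgeR adjusted p = 3.53e-07). In WAPL-NIPBL cells it went from 5.35, 4.02 and 4.92 to 8.35, 8.51 and 11.5 CPM (log2 fold change 0.999, SE 0.15, edgeR adjusted p = 2.23e-05). WAPL cells went from 5.99, 5.40 and 5.87 to 10.4, 9.10 and 11.5 CPM (log2 fold change 0.84, SE 0.14, edgeR adjusted p = 2.39e-05). No treated library overlapped the untreated ones of its line. PDS5AB cells went from 8.63, 9.12 and 8.94 to 13.7, 13.8 and 15.6 CPM (log2 fold change 0.69, SE 0.13, edgeR adjusted p = 0.000101), and TIR1 cells held 4.48, 3.83 and 3.83 CPM without treatment and 4.53, 5.18 and 4.47 CPM after it (log2 fold change 0.22, SE 0.15, edgeR adjusted p = 0.326).

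The type V chains, which nucleate and limit fibrils, rose in PDS5AB cells. Col5a3 went from 7.72, 7.44 and 7.34 to 17.01, 16.01 and 15.4 CPM there (log2 fold change 1.10, SE 0.14, edgeR adjusted p = 1.3e-07). Under WAPL depletion it went from 6.15, 4.94 and 5.75 to 10.9, 10.3 and 9.95 CPM (log2 fold change 0.89, SE 0.14, edgeR adjusted p = 1.43e-05). The combined lines overlapped, at 4.23, 2.39 and 3.28 CPM without treatment and 4.83, 3.38 and 3.402 CPM after it in PDS5AB-NIPBL (log2 fold change 0.22, SE 0.17, edgeR adjusted p = 0.42). In WAPL-NIPBL it was at 3.46, 3.24 and 2.93 CPM without treatment and 2.47, 2.695 and 3.22 CPM after it (log2 fold change -0.18, SE 0.17, edgeR adjusted p = 0.601). Auxin in TIR1 cells lowered Col5a3 from 6.36, 5.15 and 5.07 to 3.59, 3.37 and 3.01 CPM (log2 fold change -0.74, SE 0.15, edgeR adjusted p = 0.000939), across the sets of library numbers. Col5a1, the most abundant fibril chain, rose in PDS5AB (log2 fold change 0.73, SE 0.10, edgeR adjusted p = 5.74e-07), WAPL (log2 fold change 0.38, SE 0.10, edgeR adjusted p = 0.00449) and PDS5AB-NIPBL cells (log2 fold change 0.45, SE 0.10, edgeR adjusted p = 0.00211), while its change in WAPL-NIPBL cells was 0.05 (SE 0.11, edgeR adjusted p = 0.875). Col5a2 rose in PDS5AB cells (log2 fold change 0.97, SE 0.20, edgeR adjusted p = 0.000218) and passed in no other degron line.

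The cartilage chains were mixed. Col2a1 rose in PDS5AB cells (log2 fold change 1.04, SE 0.17, edgeR adjusted p = 1.35e-05), and its change of 0.48 (SE 0.20, edgeR adjusted p = 0.102) in PDS5AB-NIPBL cells passed under the block alone (adjusted p = 0.023). Col11a1 fell in WAPL (log2 fold change -0.89, SE 0.20, edgeR adjusted p = 0.000633) and PDS5AB-NIPBL cells (log2 fold change -0.87, SE 0.19, edgeR adjusted p = 0.000925), from 7.39, 7.97 and 6.19 to 4.28, 4.19 and 3.33 CPM in the latter, and was at -0.50 (SE 0.20, edgeR adjusted p = 0.122) in WAPL-NIPBL cells, which passed under the block (adjusted p = 0.0466). Col11a2 passed in PDS5AB (log2 fold change 0.87, SE 0.28, edgeR adjusted p = 0.0116) and TIR1 cells (log2 fold change 0.98, SE 0.30, edgeR adjusted p = 0.0201). Its PDS5AB call was lost without auxin-treated replicate 1 (0.0687) and without untreated replicate 3 (0.0671), with a range of 0.00536 to 0.0687 over 11 alternatives to the edgeR fit. Its TIR1 call was lost without untreated replicate 1 (0.0895) and without auxin-treated replicate 1 (0.0937), with a range of 0.0105 to 0.0937.

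Fibroblasts and chondrocytes are the cells known for these collagens. The 10 fibroblast markers (Thy1, Pdgfrb, Postn, Lum, Dcn, Twist1, Twist2, Prrx1, Acta2 and Tagln) summed to 25.98 to 28.5 CPM in untreated and 37.1 to 39.95 CPM in treated PDS5AB libraries, and to 16.9 to 18.3 and 16.5 to 18.4 CPM in WAPL libraries. In PDS5AB-NIPBL they summed to 17.9 to 20.5 and 18.9 to 22.3, in WAPL-NIPBL to 14.5 to 18.7 and 14.8 to 20.5 and in TIR1 to 20.7 to 26.3 and 20.8 to 28.03 CPM. Of the 5 with a test, 2 rose and 0 fell in PDS5AB cells, 2 and 1 in WAPL, 0 and 1 in PDS5AB-NIPBL, 0 and 1 in WAPL-NIPBL and 1 and 1 in TIR1 cells, where 46%, 32.8%, 19.5%, 8.57% and 19.9% of all genes were called in either direction. Dcn was at 0 in every library of 6 of the 10 groups and Twist2 of 5. The 4 chondrocyte markers (Sox9, Acan, Matn1 and Hapln1) summed to 14.1 to 16.6 and 23.3 to 25.6 CPM in PDS5AB, 21.5 to 24.9 and 14.8 to 17.9 in WAPL, 12.3 to 17.4 and 13.3 to 20.3 in PDS5AB-NIPBL, 14.6 to 19.6 and 16.9 to 20.1 in WAPL-NIPBL and 18.9 to 30.1 and 24.9 to 26.7 in TIR1 cells. Of the 3 chondrocyte markers with a test, 2 rose in PDS5AB cells, 2 fell in WAPL, 1 rose in PDS5AB-NIPBL, 1 fell in TIR1 and none passed in WAPL-NIPBL cells, against the same shares. The part of either list in the collagen changes was not tested.

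Among the 23 other collagens, which include the transmembrane, beaded-filament and fibril-associated types, 13 rose and 2 fell in PDS5AB cells, 8 and 3 in WAPL, 5 and 2 in PDS5AB-NIPBL, 2 and 0 in WAPL-NIPBL and 1 and 2 in TIR1 cells. The shares of all genes called were 46%, 32.8%, 19.5%, 8.57% and 19.9%, so the WAPL-NIPBL count was near the background and the TIR1 count below it. Col8a1, which entered the test through the treated PDS5AB libraries, is among the 13. Col23a1, a transmembrane collagen, rose in all 4 degron lines. It went from 2.16, 4.13 and 3.45 to 8.84, 10.8 and 9.96 CPM in PDS5AB cells (log2 fold change 1.60, SE 0.21, edgeR adjusted p = 2.01e-07). PDS5AB-NIPBL cells went from 2.04, 2.66 and 1.61 to 6.92, 6.31 and 6.12 CPM (log2 fold change 1.63, SE 0.22, edgeR adjusted p = 2.8e-06). WAPL cells went from 0.865, 0.917 and 0.787 to 1.92, 3.34 and 2.24 CPM (log2 fold change 1.55, SE 0.26, edgeR adjusted p = 2.22e-05). The treated libraries were higher without overlap in all of them, and PDS5AB and PDS5AB-NIPBL cells started above the other lines. WAPL-NIPBL cells went from 0.237, 0.564 and 0.279 to 1.08, 0.704 and 0.900 CPM (log2 fold change 1.25, SE 0.35, edgeR adjusted p = 0.0217). The call did not hold with only the groups compared in the fit (0.056), without untreated replicate 1 (0.0994), without treated replicate 1 (0.0775), without untreated replicate 3 (0.118) and without treated replicate 3 (0.0625), and its adjusted p ran from 0.00818 to 0.118 over 11 alternatives to the edgeR fit. TIR1 cells held 0.919, 0.616 and 0.674 CPM without treatment and 0.790, 0.656 and 0.819 CPM after it (log2 fold change 0.02, SE 0.31, edgeR adjusted p = 0.974).

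Col13a1, another transmembrane collagen, fell in 3 degron lines. The log2 changes were -0.80 (SE 0.14, edgeR adjusted p = 3.57e-05) in PDS5AB, -0.97 (SE 0.17, edgeR adjusted p = 4.02e-05) in WAPL and -0.70 (SE 0.16, edgeR adjusted p = 0.00217) in PDS5AB-NIPBL cells, without overlap of the groups. WAPL-NIPBL cells gave -0.07 (SE 0.16, edgeR adjusted p = 0.863). It fell in TIR1 cells too (log2 fold change -0.64, SE 0.15, edgeR adjusted p = 0.003), and the PDS5AB and WAPL effects did not pass a test of their difference from the TIR1 effect (-0.16 (SE 0.21, edgeR adjusted p = 0.619) and -0.33 (SE 0.23, edgeR adjusted p = 0.324)). Col26a1 fell in WAPL cells from 5.87, 5.08 and 3.94 to 2.30, 2.67 and 1.90 CPM (log2 fold change -1.12, SE 0.29, edgeR adjusted p = 0.00324).

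Col6a4, a chain of microfibrillar type VI collagen, had the largest rise in PDS5AB cells among chain genes with a mean of 50 or more counts, from 1.82, 1.98 and 1.93 to 7.24, 7.19 and 6.79 CPM (log2 fold change 1.88, SE 0.23, edgeR adjusted p = 7.55e-08). In WAPL cells it was at 1.39, 0.635 and 1.06 CPM without treatment and 1.84, 1.79 and 1.69 CPM after it (log2 fold change 0.77, SE 0.27, edgeR adjusted p = 0.0255). This call did not hold with only the groups compared in the fit (0.0547), without auxin-treated replicate 1 (0.0517), without untreated replicate 2 (0.165), without auxin-treated replicate 2 (0.0508) and without untreated replicate 3 (0.0522), and its adjusted p ran from 0.00878 to 0.165 over 11 alternatives to the edgeR fit. PDS5AB-NIPBL cells held 0.717, 0.696 and 0.852 CPM without treatment and 0.956, 1.57 and 1.40 CPM after it (log2 fold change 0.78, SE 0.30, edgeR adjusted p = 0.0687), which passed under the block (adjusted p = 0.0484). WAPL-NIPBL cells held 1.18, 0.670 and 1.68 CPM without treatment and 0.822, 0.888 and 1.28 CPM after it (log2 fold change -0.22, SE 0.28, edgeR adjusted p = 0.736). TIR1 cells held 2.06, 1.32 and 1.35 CPM without treatment and 1.58, 1.22 and 1.06 CPM after it (log2 fold change -0.30, SE 0.26, edgeR adjusted p = 0.446).

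The type IX chains, which decorate cartilage fibrils, split. Col9a3 rose in PDS5AB-NIPBL cells from 3.77, 6.70 and 3.28 to 9.02, 13.4 and 8.60 CPM (log2 fold change 1.19, SE 0.21, edgeR adjusted p = 0.000105). With WAPL depleted it rose from 5.50, 8.96 and 6.26 to 16.1, 15.3 and 16.6 CPM (log2 fold change 1.21, SE 0.19, edgeR adjusted p = 1.19e-05). In PDS5AB cells it rose from 8.63, 7.90 and 9.47 to 13.6, 14.4 and 17.01 CPM (log2 fold change 0.79, SE 0.19, edgeR adjusted p = 0.000981). The groups did not overlap in these 3 lines. WAPL-NIPBL cells held 4.55, 6.84 and 5.66 CPM without treatment and 7.96, 9.59 and 7.52 CPM after it (log2 fold change 0.55, SE 0.20, edgeR adjusted p = 0.0965), which passed under the block (adjusted p = 0.018), and TIR1 cells held 7.02, 5.86 and 5.07 CPM without treatment and 5.99, 6.04 and 6.95 CPM after it (log2 fold change 0.08, SE 0.20, edgeR adjusted p = 0.827).

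Col9a2 differed in direction between the lines. It fell in PDS5AB (log2 fold change -0.41, SE 0.14, edgeR adjusted p = 0.0185) and WAPL cells (log2 fold change -0.39, SE 0.14, edgeR adjusted p = 0.0269) and rose in PDS5AB-NIPBL (log2 fold change 0.46, SE 0.14, edgeR adjusted p = 0.0156), WAPL-NIPBL (log2 fold change 0.45, SE 0.13, edgeR adjusted p = 0.0297) and TIR1 cells (log2 fold change 0.54, SE 0.13, edgeR adjusted p = 0.00439). The PDS5AB call was lost without untreated replicate 2 (0.132), and its adjusted p ran from 0.00085 to 0.132 over 11 alternatives to the edgeR fit. The WAPL call was lost without untreated replicate 1 (0.18), without auxin-treated replicate 2 (0.141), without untreated replicate 3 (0.0625) and without auxin-treated replicate 3 (0.0849), and its adjusted p ran from 0.00217 to 0.18 over 11 alternatives to the edgeR fit. The PDS5AB-NIPBL call was lost with only the groups compared in the fit (0.0674), without treated replicate 1 (0.144), without untreated replicate 2 (0.0913) and without untreated replicate 3 (0.105), and its adjusted p ran from 0.000564 to 0.144 over 11 alternatives to the edgeR fit. The WAPL-NIPBL call was lost without untreated replicate 1 (0.0565), without treated replicate 1 (0.105), without untreated replicate 2 (0.11), without untreated replicate 3 (0.0571) and without treated replicate 3 (0.0868), and its adjusted p ran from 0.000945 to 0.11 over 11 alternatives to the edgeR fit.

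**Figure D5:**
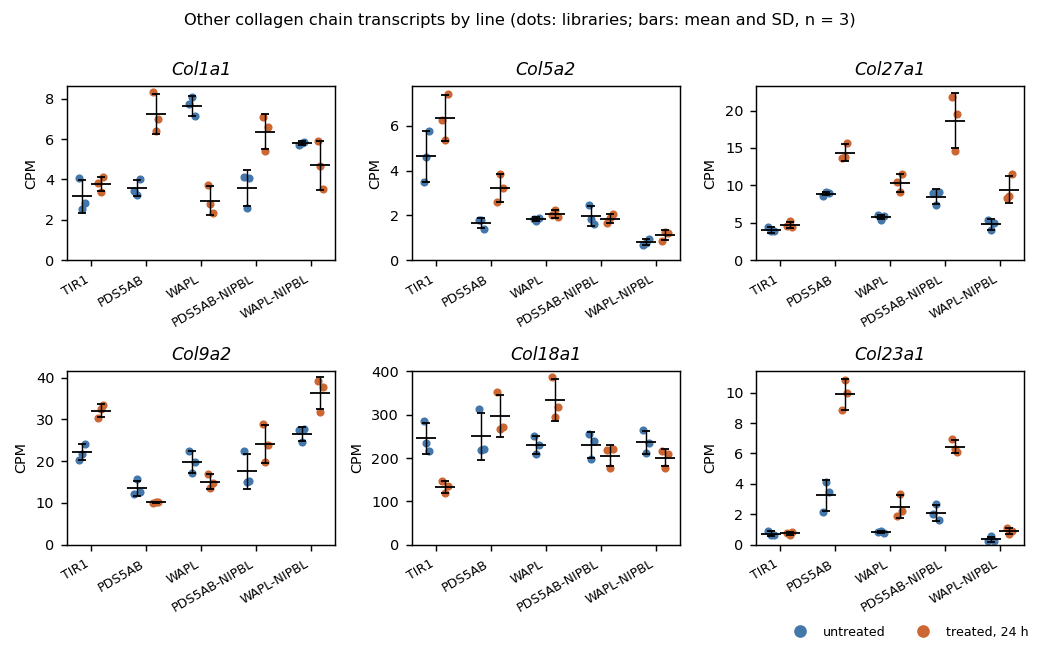
Level (CPM, linear axes from 0) of 6 further collagen chain genes in the 5 lines; dots are libraries, coloured by treatment, and bars give the mean and SD (n = 3). Col27a1 and Col23a1 are higher after treatment in all 4 degron lines, whereas Col1a1 is higher in PDS5AB and PDS5AB-NIPBL cells and lower in WAPL cells.

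Whether an effect was particular to a line was tested as a difference of effects. Against the auxin effect in TIR1 cells, 20 chain genes had a higher and 2 a lower effect in PDS5AB cells, where 13.9% and 12.4% of all genes did (26.3% in either direction). For WAPL cells the counts were 17 and 5, against 9.86% and 10.9% (20.7%). These comparisons share the TIR1 libraries and cross the sets of library numbers. Among the genes that rose in all 4 depletions, Lama5, Lamb2, Lamb3, Col4a1, Col4a2 and Col23a1 exceeded the TIR1 effect in both PDS5AB and WAPL cells. Lamb1 and Col27a1 did so in WAPL cells, and in PDS5AB cells their differences were 0.46 (SE 0.19, edgeR adjusted p = 0.0671) and 0.46 (SE 0.20, edgeR adjusted p = 0.0928), which passed under the block (adjusted p = 0.00789 and 0.0435). The Lama5 call in PDS5AB was lost without PDS5AB auxin-treated replicate 1 (0.0599) or 3 (0.0546), PDS5AB untreated replicate 2 (0.0607), TIR1 untreated replicate 1 (0.107) or TIR1 auxin-treated replicate 2 (0.057), with a range of 0.000337 to 0.107 over 17 alternatives to the edgeR fit. The Col27a1 call in WAPL was lost without TIR1 untreated replicate 1 (0.1), WAPL auxin-treated replicate 1 (0.0517) or 3 (0.0904), WAPL untreated replicate 2 (0.0761) or TIR1 auxin-treated replicate 1 (0.0671) or 3 (0.0735), with a range of 0.0113 to 0.1.

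The combined lines were compared with the line lacking the NIPBL degron. In PDS5AB-NIPBL the effect was higher than in PDS5AB for 2 chain genes and lower for 8, where 4.97% and 4.48% of all genes were (9.46% in either direction). With the replicate number as a block the counts were 3 higher and 13 lower, where 20.1% of all genes were called in either direction. In WAPL-NIPBL against WAPL 4 were higher and 6 lower, against 3.03% and 2.16% (5.19%), and 6 and 10 under the block (11.8% of all genes in either direction). The lines differ in clone, in the HaloTag and in dTAG-13 as well as in NIPBL, and these cannot be told apart. Lama1 had a higher effect in both combined lines (0.52 (SE 0.12, edgeR adjusted p = 0.00399) and 0.50 (SE 0.12, edgeR adjusted p = 0.00754)), as did Col9a2 (0.88 (SE 0.20, edgeR adjusted p = 0.00436) and 0.84 (SE 0.19, edgeR adjusted p = 0.0065)). No type IV chain differed at this threshold in either comparison, with Col4a1 at -0.52 (SE 0.22, edgeR adjusted p = 0.15) and -0.12 (SE 0.22, edgeR adjusted p = 0.855); the first passed under the block (adjusted p = 0.0157).

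Between PDS5AB and WAPL loss, 9 chain genes had a higher effect in PDS5AB and 4 a higher effect in WAPL cells, against 7.38% and 5.11% of all genes (12.5% in either direction). Under the block the counts were 15 and 5, where 22.8% of all genes were called in either direction. All 4 that were higher in WAPL cells were laminin chains: Lamb3 (-1.23 (SE 0.33, edgeR adjusted p = 0.0117)), Lamb1 (-0.86 (SE 0.18, edgeR adjusted p = 0.00155)), Lama3 (-0.60 (SE 0.15, edgeR adjusted p = 0.00834)) and Lama5 (-0.47 (SE 0.11, edgeR adjusted p = 0.00513)). Of the 9 higher in PDS5AB cells, 4 were fibril-forming chains, with Col1a1 at 2.40 (SE 0.27, edgeR adjusted p = 4.01e-07), Col1a2 at 2.703 (SE 0.53, edgeR adjusted p = 0.000704), Col11a1 at 1.05 (SE 0.27, edgeR adjusted p = 0.00784) and Col2a1 at 1.02 (SE 0.24, edgeR adjusted p = 0.00366).

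The untreated degron lines already differed from untreated TIR1 cells. In PDS5AB 19 chain genes were higher and 8 lower, against 15.5% and 16.5% of all genes (32% in either direction), a comparison within 1 set of library numbers. The counts were 6 and 3 in WAPL (6.62% and 7.39%, together 14%), 11 and 10 in PDS5AB-NIPBL (16.5% and 17.8%, together 34.3%) and 9 and 8 in WAPL-NIPBL (13.4% and 14.6%, together 28%), all across the sets. The 4 comparisons share the untreated TIR1 libraries, and each degron line's untreated libraries also enter its treatment effect. Lamb1 was higher in all 4 untreated lines, by 1.50 (SE 0.14, edgeR adjusted p = 3.73e-10) in PDS5AB, 0.96 (SE 0.14, edgeR adjusted p = 9.51e-06) in WAPL, 0.99 (SE 0.14, edgeR adjusted p = 1.37e-06) in PDS5AB-NIPBL and 0.88 (SE 0.14, edgeR adjusted p = 1.33e-05) in WAPL-NIPBL. Col5a2 was lower in all 4, at 3.49, 4.62 and 5.78 CPM in TIR1 against 1.79, 1.79 and 1.41 in PDS5AB, 1.85, 1.73 and 1.89 in WAPL, 2.47, 1.83 and 1.61 in PDS5AB-NIPBL and 0.663, 0.775 and 0.943 CPM in WAPL-NIPBL. The log2 differences of Col5a2 were -1.49, -1.34, -1.23 and -2.52 in that order (SE 0.20, 0.20, 0.20 and 0.23).

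Of the 11 primitive and parietal endoderm markers, 7 were higher and 0 lower in untreated PDS5AB than in untreated TIR1 cells (median log2 difference 1.53), with sums of 26.9 to 32.1 against 9.99 to 12.3 CPM. In WAPL 1 was higher and 1 lower, in PDS5AB-NIPBL 2 and 1 and in WAPL-NIPBL 0 and 1. Of all genes 32% differed in either direction in PDS5AB and 14% in WAPL, and the combined lines had 34.3% and 28%, so the PDS5AB-NIPBL and WAPL-NIPBL marker counts lay below the background. Their part in the untreated differences of the chain genes was not tested.

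Other untreated levels differed from TIR1 cells in 1 line or more. Lamb3 (1.91 (SE 0.26, edgeR adjusted p = 6.05e-07)) and Lama4 (1.86 (SE 0.22, edgeR adjusted p = 4.2e-08)) were higher in PDS5AB cells, and Lama4 was lower in WAPL-NIPBL cells (-1.65 (SE 0.29, edgeR adjusted p = 6.48e-05)). Col23a1 was higher in PDS5AB (2.13 (SE 0.26, edgeR adjusted p = 1.48e-07)) and PDS5AB-NIPBL cells (1.48 (SE 0.28, edgeR adjusted p = 0.000117)). Col27a1 was likewise higher in PDS5AB (1.13 (SE 0.15, edgeR adjusted p = 4.13e-07)) and PDS5AB-NIPBL cells (1.07 (SE 0.15, edgeR adjusted p = 2.01e-06)). Col2a1 was lower in the same lines (-1.14 (SE 0.17, edgeR adjusted p = 5.13e-06) and -1.69 (SE 0.19, edgeR adjusted p = 2.72e-08)) and higher in WAPL-NIPBL cells (0.61 (SE 0.16, edgeR adjusted p = 0.00501)). Col26a1 was lower in PDS5AB (-0.99 (SE 0.26, edgeR adjusted p = 0.00413)) and PDS5AB-NIPBL cells (-1.26 (SE 0.27, edgeR adjusted p = 0.000611)), and Col17a1 in PDS5AB-NIPBL cells (-1.55 (SE 0.21, edgeR adjusted p = 9.28e-07)).

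WAPL and WAPL-NIPBL cells shared higher Col1a1 (1.27 (SE 0.19, edgeR adjusted p = 2.79e-05) and 0.87 (SE 0.20, edgeR adjusted p = 0.00132)) and lower Col13a1 (-0.63 (SE 0.15, edgeR adjusted p = 0.00566) and -0.67 (SE 0.16, edgeR adjusted p = 0.00172)), while Col13a1 was higher in PDS5AB cells (0.74 (SE 0.14, edgeR adjusted p = 0.000147)). Col4a1 (1.28 (SE 0.16, edgeR adjusted p = 3.82e-07)) and Col4a2 (1.52 (SE 0.17, edgeR adjusted p = 7.57e-08)) were higher in WAPL-NIPBL cells. Lama3 was lower in PDS5AB-NIPBL (-0.87 (SE 0.12, edgeR adjusted p = 1.2e-06)) and WAPL-NIPBL cells (-1.02 (SE 0.12, edgeR adjusted p = 1.71e-07)) and higher in PDS5AB cells (0.94 (SE 0.11, edgeR adjusted p = 6.26e-08)). It ran from 9.48, 7.86 and 9.64 CPM in untreated WAPL-NIPBL to 38.6, 33.7 and 32.3 CPM in untreated PDS5AB cells. The PDS5AB comparison lies within 1 set of library numbers and the others cross the sets. A further 5 calls of these genes did not hold under some alternatives. In untreated WAPL cells Col26a1 (-0.78 (SE 0.26, edgeR adjusted p = 0.0441)) lost its call without TIR1 replicate 1 (0.0621), 2 (0.075) or 3 (0.167), without WAPL replicate 2 (0.109) or 3 (0.179) and with DESeq2 (0.0591). Col27a1 (0.51 (SE 0.15, edgeR adjusted p = 0.0257)) did so without TIR1 replicate 2 (0.0985) or 3 (0.095) and WAPL replicate 1 (0.0658) or 3 (0.0646), and Col4a2 (0.58 (SE 0.17, edgeR adjusted p = 0.0237)) without TIR1 replicate 2 (0.084) or 3 (0.107) and WAPL replicate 2 (0.0961) or 3 (0.0674). Col4a1 in PDS5AB-NIPBL cells (-0.44 (SE 0.16, edgeR adjusted p = 0.0343)) did so without TIR1 replicate 1 (0.162) or 2 (0.0938), without PDS5AB-NIPBL replicate 1 (0.0649), 2 (0.083) or 3 (0.109) and with DESeq2 (0.057). Col23a1 in WAPL-NIPBL cells (-0.995 (SE 0.37, edgeR adjusted p = 0.0423)) did so with only the groups compared in the fit (0.0676), without TIR1 replicate 1 (0.177), 2 (0.0508) or 3 (0.0619) and without WAPL-NIPBL replicate 1 (0.14) or 3 (0.159). Over 11 alternatives each, the adjusted p ran from 8.41e-05 to 0.179 for Col26a1, 0.00669 to 0.0985 for Col27a1, 4.8e-06 to 0.107 for Col4a2, 4.06e-05 to 0.162 for Col4a1 and 0.0149 to 0.177 for Col23a1.

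The chains are modified, secreted, cross-linked and bound by a set of other proteins, and 64 of 65 genes listed for these steps had a test. In PDS5AB cells 39 rose and 8 fell, against 25.8% and 20.2% of all genes tested, and in WAPL cells 23 rose and 12 fell, against 17% and 15.8%. In PDS5AB-NIPBL 19 rose and 8 fell, against 11.4% and 8.06%, and in WAPL-NIPBL 10 rose and 5 fell, against 5.11% and 3.45%. In TIR1 cells 4 rose and 8 fell, against 10.4% and 9.59%, so the share in either direction was near the background of 19.9%. Of the 17 genes of chain modification and folding, which hydroxylate, glycosylate and fold collagen chains, 10 rose and 1 fell in PDS5AB cells, where 46% of all genes were called in either direction, and 1 rose and 2 fell in WAPL cells, where 32.8% were, so that the WAPL count lay below that background. In PDS5AB-NIPBL 4 rose and 1 fell, in WAPL-NIPBL 3 and 0 and in TIR1 cells 0 and 1, against 19.5%, 8.57% and 19.9%. Of the 13 linkers and other basement membrane proteins, 8 rose and 2 fell in PDS5AB, 9 and 1 in WAPL, 6 and 1 in PDS5AB-NIPBL, 4 and 0 in WAPL-NIPBL and 2 and 1 in TIR1 cells, where 46%, 32.8%, 19.5%, 8.57% and 19.9% of all genes were called in either direction. Tinagl1, a basement membrane protein, went from 9.64, 8.30 and 8.53 to 84.4, 70.1 and 70.4 CPM in PDS5AB cells (log2 fold change 3.09, SE 0.15, edgeR adjusted p = 1.96e-15), and its log2 change was 1.49 (SE 0.14, edgeR adjusted p = 2.49e-09) in WAPL, 1.55 (SE 0.15, edgeR adjusted p = 1.34e-08) in PDS5AB-NIPBL, 1.04 (SE 0.15, edgeR adjusted p = 1.48e-05) in WAPL-NIPBL and 0.74 (SE 0.15, edgeR adjusted p = 0.000535) in TIR1 cells. Loxl4, a collagen cross-linking enzyme, rose in PDS5AB cells (log2 fold change 2.83, SE 0.18, edgeR adjusted p = 4.21e-13), Fras1, which links epidermal basement membrane, in WAPL (log2 fold change 2.07, SE 0.25, edgeR adjusted p = 1.36e-07), Mmp2, which cleaves type IV collagen, in PDS5AB-NIPBL (log2 fold change 1.42, SE 0.18, edgeR adjusted p = 8.4e-07), and Pxdn, which cross-links type IV collagen, in WAPL-NIPBL cells (log2 fold change 1.001, SE 0.19, edgeR adjusted p = 0.000742). Tll1, a protease that processes procollagen, fell in WAPL cells from 0.278, 0.423 and 0.669 to 0.153, 0.0880 and 0.0907 CPM (log2 fold change -2.01, SE 0.50, edgeR adjusted p = 0.00205), and Fkbp10, a collagen chaperone, fell in TIR1 cells (log2 fold change -0.72, SE 0.15, edgeR adjusted p = 0.000953).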

How the data were processed

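Polyadenylated RNA of 30 libraries (10 groups of 3) was measured. The authors deposited raw counts of fragments per gene, made with featureCounts 2.0.1 in paired mode on GENCODE gene models of GRCm38, per the file headers. Reads were aligned with STAR 2.7.7a, per the submitters' processing notes. The recorded command sets no strand option although the kit marks strand, so reads from antisense genes are included. It also drops fragments that map to several places or genes. Of the 48 chain genes, 13 share exon bases with another gene, none over 10% of their length. Symbols were matched to 55154 of 55421 identifiers.

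Counts were tested with edgeR 4.0.16 (R 4.3.3). A single model of 10 group means over the 30 libraries left 20 residual degrees of freedom, after filterByExpr (minimum count 10) and TMM scaling, with the quasi-likelihood F-test and Benjamini-Hochberg adjustment over 19868 genes. Standard errors were derived from the F statistic. There were 14 contrasts: 5 treatment effects, 4 untreated baselines and 5 differences of effects. The script was tested on simulated counts. Replicates of a group correlated at r = 0.987 or more, and no libraries were identical.

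Replicate numbers are shared between the groups of a line. Deviations of same-numbered libraries correlated in 12 of 12 pairs of the 4 degron lines (0.109 to 0.333), so numbers were taken to pair these libraries. In TIR1 cells the correlations were -0.0102 to 0.0574. The main fit did not use this pairing. A fit with the replicate number, within each set of library numbers, as a block was an alternative. Under that block 32 chain genes rose and 4 fell in PDS5AB, 22 and 9 in WAPL and 21 and 6 in PDS5AB-NIPBL cells. Of all genes, 54.2%, 42.0% and 28.6% were called there in either direction. In TIR1 cells 5 rose and 6 fell, where 31.5% of all genes were called. DESeq2 1.42.0, RLE scaling, an unfiltered table, fits of only the groups compared, a 2-fold minimum and fits without each library in turn were also run.

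The chain genes, lists and markers were chosen with earlier results of these data known. Named are all basement membrane and fibril-forming chains, and in each contrast the 3 largest called changes per direction with a mean of 50 or more counts. These rules also select 1 further chain gene, which enters the counts and is not reported here by itself. Values of every library are given for the 3 largest in each treatment effect and for Col4a1, Col4a2, Lama1, Lamb1 and Lamc1. From the list of other matrix genes the 3 largest changes per treatment effect could be named. The remaining marker lists (mesoderm, neural, trophoblast and endothelial cells) are given as sums in the closing section.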

Additional observations from a re-analysis of the deposited data

Results flagged for a closer look

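These values are differences between the treatment effects of 2 lines, on the log2 scale, that passed the test of the difference itself, and the largest in each direction among genes with a mean of 50 or more counts are given. Genes below that mean had larger called differences in some comparisons, such as Col1a2 at 2.703 (SE 0.53, edgeR adjusted p = 0.000704) in PDS5AB minus WAPL. The comparisons with TIR1 cross the sets of library numbers, and the comparisons with combined lines differ in clone, HaloTag and dTAG-13 as well as NIPBL. These cannot be told apart.

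PDS5AB depletion and auxin alone in TIR1 cells differed most in these chain genes. The effect was higher in PDS5AB than in TIR1 cells for Col4a1 (2.53, SE 0.23, edgeR adjusted p = 2.75e-09), Lamb3 (2.33, SE 0.37, edgeR adjusted p = 2.38e-05) and Col6a4 (2.19, SE 0.35, edgeR adjusted p = 2.23e-05). It was lower in PDS5AB cells for Col9a2 (-0.95, SE 0.20, edgeR adjusted p = 0.000532) and Lama1 (-0.78, SE 0.12, edgeR adjusted p = 1e-05).

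The same difference was taken between WAPL depletion and auxin in TIR1 cells. The effect was higher in WAPL than in TIR1 cells for Lamb3 (3.56, SE 0.40, edgeR adjusted p = 1.01e-07), Col4a1 (1.88, SE 0.23, edgeR adjusted p = 4.17e-07) and Col5a3 (1.62, SE 0.21, edgeR adjusted p = 1.27e-06). It was lower in WAPL cells for Col1a1 (-1.64, SE 0.28, edgeR adjusted p = 5.91e-05), Col11a1 (-1.22, SE 0.27, edgeR adjusted p = 0.0011) and Col9a2 (-0.93, SE 0.19, edgeR adjusted p = 0.000603).

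Effects in PDS5AB-NIPBL cells were set against those in PDS5AB cells. The effect was higher in PDS5AB-NIPBL than in PDS5AB cells for Col9a2 (0.88, SE 0.20, edgeR adjusted p = 0.00436) and Lama1 (0.52, SE 0.12, edgeR adjusted p = 0.00399). It was lower in PDS5AB-NIPBL cells for Col7a1 (-1.20, SE 0.29, edgeR adjusted p = 0.00744), Col5a2 (-1.05, SE 0.30, edgeR adjusted p = 0.0217) and Col11a1 (-1.03, SE 0.26, edgeR adjusted p = 0.0106). The Col5a2 call was lost without PDS5AB auxin-treated replicate 2 (0.0692), without PDS5AB untreated replicate 3 (0.062), without PDS5AB-NIPBL untreated replicate 1 (0.0914) and without PDS5AB-NIPBL treated replicate 1 (0.0574), and its adjusted p ran from 0.00936 to 0.0914 over 17 alternatives.

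WAPL-NIPBL effects were set against WAPL effects in the same way. The effect was higher in WAPL-NIPBL than in WAPL cells for Col1a1 (1.07, SE 0.27, edgeR adjusted p = 0.0149), Col13a1 (0.90, SE 0.23, edgeR adjusted p = 0.0193) and Col9a2 (0.84, SE 0.19, edgeR adjusted p = 0.0065). It was lower in WAPL-NIPBL cells for Lamb3 (-1.45, SE 0.38, edgeR adjusted p = 0.0211), Col5a3 (-1.07, SE 0.22, edgeR adjusted p = 0.0028) and Lama3 (-0.85, SE 0.17, edgeR adjusted p = 0.00193). The Col1a1 call was lost without WAPL-NIPBL treated replicate 1 (0.0638) and without WAPL auxin-treated replicate 3 (0.0661), and its adjusted p ran from 0.00112 to 0.0661 over 17 alternatives. The Col13a1 call was lost with no filter on low counts (0.0518), with only the groups compared in the fit (0.0602), without WAPL-NIPBL treated replicate 1 (0.0688), without WAPL untreated replicate 1 (0.0641), without WAPL auxin-treated replicate 2 (0.0523), without WAPL-NIPBL untreated replicate 3 (0.0643) and without WAPL auxin-treated replicate 3 (0.0542), and its adjusted p ran from 0.00905 to 0.0688 over 17 alternatives. The Lamb3 call was lost without WAPL-NIPBL untreated replicate 1 (0.0622), without WAPL-NIPBL treated replicate 1 (0.0565), without WAPL untreated replicate 1 (0.0593), without WAPL-NIPBL untreated replicate 3 (0.052) and without WAPL untreated replicate 3 (0.0531), and its adjusted p ran from 5.61e-05 to 0.0622 over 17 alternatives.

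Effects in PDS5AB and WAPL cells were also subtracted from each other. The effect was higher in PDS5AB than in WAPL cells for Col1a1 (2.40, SE 0.27, edgeR adjusted p = 4.01e-07), Col26a1 (1.40, SE 0.40, edgeR adjusted p = 0.0172) and Col6a4 (1.11, SE 0.35, edgeR adjusted p = 0.0338). It was lower in PDS5AB cells for Lamb3 (-1.23, SE 0.33, edgeR adjusted p = 0.0117), Lamb1 (-0.86, SE 0.18, edgeR adjusted p = 0.00155) and Lama3 (-0.60, SE 0.15, edgeR adjusted p = 0.00834). The Col26a1 call was lost without PDS5AB auxin-treated replicate 2 (0.052), without WAPL untreated replicate 1 (0.0511) and without WAPL auxin-treated replicate 3 (0.0563), and its adjusted p ran from 1.47e-06 to 0.0563 over 17 alternatives. The Col6a4 call was lost without PDS5AB untreated replicate 1 (0.0571), without PDS5AB auxin-treated replicate 1 (0.0672), without PDS5AB untreated replicate 2 (0.0561), without PDS5AB auxin-treated replicate 2 (0.0627), without PDS5AB untreated replicate 3 (0.0622), without PDS5AB auxin-treated replicate 3 (0.0528), without WAPL untreated replicate 1 (0.193), without WAPL auxin-treated replicate 1 (0.0524), without WAPL auxin-treated replicate 2 (0.0581), without WAPL untreated replicate 3 (0.0728) and without WAPL auxin-treated replicate 3 (0.0731), and its adjusted p ran from 0.012 to 0.193 over 17 alternatives.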

How the results depend on the processing

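Requiring at least a 2-fold change left 22 chain genes for PDS5AB, 11 for WAPL, 10 for PDS5AB-NIPBL, 2 for WAPL-NIPBL and 1 for TIR1 cells. The same minimum left 12, 2, 13 and 6 in the untreated PDS5AB, WAPL, PDS5AB-NIPBL and WAPL-NIPBL comparisons with TIR1. It left 6 in PDS5AB-NIPBL minus PDS5AB, 3 in WAPL-NIPBL minus WAPL and 7 in PDS5AB minus WAPL. With the replicate number as a block and no such minimum these last 3 counts were 16, 16 and 20, where 20.1%, 11.8% and 22.8% of all genes were called. The share of all genes at the 2-fold minimum is not given here. The counts at that minimum are therefore not set against a background. The block ended no named call and let 46 further results of named chain genes pass, given beside those results that the text prints. The other counts stayed within 1.5 times under each alternative, and leaving out a library gave 31 to 35 for PDS5AB, 23 to 27 for WAPL, 16 to 20 for PDS5AB-NIPBL, 7 to 10 for WAPL-NIPBL and 6 to 9 for TIR1 cells. Of 230 named calls, 178 passed under every alternative other than the 2-fold minimum, and 52 were lost on leaving out at least 1 library, 14 with only the groups compared, 5 with DESeq2, 4 without the filter and 1 with RLE. None reversed. The cause of these losses was not tested. Of the 47 genes, 17 had a mean under 50 counts, and their fold changes rest on few fragments.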

Other observations

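Some chain genes had few counts that differed between lines. They were chosen after their values were seen and are given as counts per library, with no test. Col25a1, a transmembrane collagen of neurons, had 18, 14, 13 counts in the untreated and 15, 16, 24 in the treated PDS5AB libraries. Untreated TIR1 libraries had 0, 0, 0 counts and untreated WAPL libraries 0, 1, 0. Untreated PDS5AB-NIPBL libraries had 2, 1, 4 and untreated WAPL-NIPBL libraries 0, 1, 1. Col8a1, a short-chain collagen of vessels and cornea, had 1, 2, 7 counts before and 19, 22, 14 after auxin in PDS5AB cells. In the WAPL cells it had 0, 0, 0 counts before and 4, 7, 6 after, and in PDS5AB-NIPBL cells 1, 3, 0 before and 3, 3, 9 after treatment. Col6a1 and Col6a2, neighbours on chromosome 10 that encode chains of 1 type VI molecule, both stood higher in untreated PDS5AB libraries (15, 20, 17 and 42, 34, 43 counts) than in untreated TIR1 libraries (6, 1, 0 and 2, 3, 2 counts). Untreated WAPL libraries had 8, 11, 6 and 6, 10, 7 counts, untreated PDS5AB-NIPBL libraries 4, 20, 8 and 4, 2, 10, and untreated WAPL-NIPBL libraries 0, 10, 0 and 0, 4, 1. Markers of other cell types were also summed. Over all 30 libraries the sums ran from 13.3 to 35.1 CPM for 6 mesoderm markers, 131 to 249 CPM for 6 neural markers, 16.7 to 113 CPM for 6 trophoblast markers and 102 to 189 CPM for 4 endothelial markers. The trophoblast sum was 43.7 to 64.9 CPM in untreated and 85.5 to 113 CPM in treated PDS5AB libraries, and the endothelial sum 102 to 120.1 and 159.6 to 189 CPM. Their part in the changes of the chain genes was not tested.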
